A study of Mus musculus with 9 samples.

Results

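Projection neurons are the excitatory neurons of the cortex that send long axons to other cortical areas or out of the cortex. They arise in sequence from progenitors of the dorsal telencephalon. Deep-layer neurons are born first and include the corticofugal neurons, whose axons run to the thalamus, brainstem and spinal cord, while upper-layer neurons are born later and include many callosal neurons, whose axons cross to the other hemisphere. A small set of transcription factors marks and helps to set these identities, and 9 of them are described here: *Fezf2*, *Bcl11b*, *Tbr1*, *Sox5* and *Foxp2* for the deep layers, *Cux1* and *Cux2* for the upper layers, and *Neurod2* and *Neurod6* for excitatory projection neurons of all layers. The genes were chosen by symbol from a list, and all 9 were found among the 27095 loci of the gene-level expression table. All 9 also had a mean level of at least 1 FPKM (fragments scaled to exon length and to the mapped fragments of a library) over the groups and a value above 0 in each group, as did 15455 loci in all, called the expressed loci below.

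RNA-seq was done on wild type C57BL/6 mouse fetuses (C57BL/6J in the methods) on gestational day 17 (GD17), in 3 groups of 3 animals. The dams of control fetuses received vehicle on GD7, and the dams of both exposed groups an intraperitoneal injection of 2.9 g/kg EtOH (ethanol) on that day. EtOH-exposed affected offspring showed ocular and craniofacial defects, and EtOH-exposed unaffected offspring did not, so the exposed groups are defined by anatomy. The question was how the cortical transcriptome of affected fetuses differed from that of exposed fetuses without defects and of controls. Litter and sex of single animals were not analysed here. The tissue is fetal brain according to the labels and cortex according to the methods. *Emx1*, which marks the dorsal telencephalon, was at 37.0, 39.0 and 37.0 FPKM in the control, unaffected and affected groups, whereas the 5 hindbrain and spinal cord markers summed to at most 0.045 FPKM, and 4 of them were listed at 0 in a group.

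The table holds 1 FPKM value per group and locus, taken by the authors over the animals of the group. No value of a single animal was used, so no value below carries an SD, and no difference was tested against the spread between animals. A level at least 25% higher, or at least 20% lower, in 1 group than in another was counted as past the threshold (a log2 ratio of 0.32 in size), and counts are set beside the percentage of all 15455 expressed loci that lay past it in the same direction. Between affected and control that share is 12.6% higher and 11.5% lower, between affected and unaffected 20.7% and 18.5%, and between unaffected and control 5.53% and 6.99%. The 3 comparisons share groups with each other, so an extreme value of a gene in 1 group enters 2 of them. In whole tissue, fewer cells of a type and less RNA per cell cannot be told apart.

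Promoter sequence is given for the deep-layer gene with the largest difference between groups, *Sox5*, and for the paralogs *Neurod2* and *Neurod6*, whose ratios between groups differed from each other. Each line holds the 250 bases before the RefSeq transcription start in build GRCm38.p6, read 5′ to 3′ on the minus strand, on which all 3 genes lie. Capitals mark the matches to 4 motifs searched on both strands: CAGATG (an E-box bound by NeuroD factors), ACAAT (a core of SOX sites), TAATTA (a homeodomain core) and AGGTGT (a T-box site). Among 32851 mouse promoter windows of this length, 14.4% held the E-box, 27.7% the SOX core, 4.84% the homeodomain core and 11.8% the T-box letters. The *Sox5* window is at chr6:143947107-143947356, inside the annotated gene and outside its annotated exons, upstream of an internal start. The *Neurod2* window is at chr11:98329646-98329895 and the *Neurod6* window at chr6:55681264-55681513, both directly upstream of the gene.
Sox5: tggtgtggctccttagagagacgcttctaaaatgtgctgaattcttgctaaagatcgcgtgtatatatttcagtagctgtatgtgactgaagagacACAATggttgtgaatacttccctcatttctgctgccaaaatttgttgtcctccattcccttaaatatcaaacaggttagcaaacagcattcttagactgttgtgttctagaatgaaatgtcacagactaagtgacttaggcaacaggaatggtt
Neurod2: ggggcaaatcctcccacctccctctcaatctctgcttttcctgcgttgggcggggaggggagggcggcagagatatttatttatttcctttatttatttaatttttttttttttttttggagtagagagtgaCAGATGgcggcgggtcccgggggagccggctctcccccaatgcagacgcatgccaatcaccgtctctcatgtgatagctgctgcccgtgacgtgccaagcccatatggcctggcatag
Neurod6: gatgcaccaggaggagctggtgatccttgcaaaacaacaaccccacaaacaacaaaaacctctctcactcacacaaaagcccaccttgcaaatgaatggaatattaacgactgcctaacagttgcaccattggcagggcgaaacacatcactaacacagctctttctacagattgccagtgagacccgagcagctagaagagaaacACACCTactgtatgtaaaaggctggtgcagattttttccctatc

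Each of these 3 windows held 1 match. The *Neurod2* window overlaps annotated exons by 3 bases. The windows of *Fezf2*, *Bcl11b*, *Tbr1*, *Cux1* and *Cux2* overlap them by 66 to 250 bases and are not shown. They held from 0 matches (*Fezf2* and *Bcl11b*) to 3 (*Tbr1*). No window of *Foxp2* was searched. The SOX core stood in the *Sox5* promoter, the E-box in the *Neurod2* promoter and the T-box letters, on the opposite strand, in the *Neurod6* promoter. None of the matches printed overlapped another motif. These matches describe the letters only, and no binding was measured here.

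All 9 genes were lowest in the unaffected group, intermediate in controls and highest in the affected group in the FPKM as deposited. The order turned for *Neurod6*, whose log2 ratio of affected to control was -0.0027 once FPKM were rescaled to an equal sum per group, a scaling that shifted all loci by -0.03, and for *Foxp2* and *Cux1* relative to loci of like transcript length, as given below. Any-size differences in these directions were common in the whole table, where 53% of expressed loci were higher in affected than in control, 48.3% lower in unaffected than in control and 51.2% higher in affected than in unaffected. Among loci with transcripts of at least 6000 nt, a class that holds 5 of the 9 genes, these shares were 84.9%, 81.2% and 86.4%. By size, 4 of the 9 were higher past the threshold in affected than in control offspring, against 12.6% of all expressed loci, and all 4 were deep-layer genes. With FPKM rescaled over named loci the count was 7 of 9, beside 32.1% of loci. None of the 9 was lower past it, against 11.5% of all loci. Between affected and unaffected offspring, 6 of 9 were higher past the threshold, against 20.7% of all loci, and 0 of 9 were lower, against 18.5%. Here 9 of 9 were higher with FPKM rescaled to an equal sum per group, beside 49.8% of loci, or over named loci, beside 43.4%. Between unaffected and control offspring, 0 of 9 lay past the threshold in either direction, against 5.53% of all loci higher and 6.99% lower. That count rests on the scaling, since 9 of 9 were lower past the threshold, beside 51.6% of all loci, when FPKM were rescaled to an equal sum per group, and 3 of 9, beside 10.4%, when rescaled over named loci. The middle 50% of all expressed loci had log2 ratios from -0.17 to 0.20 between affected and control, from -0.11 to 0.11 between unaffected and control, and from -0.24 to 0.27 between affected and unaffected. The plot of levels by group shows the same order of groups for each gene.

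**Figure D1:**
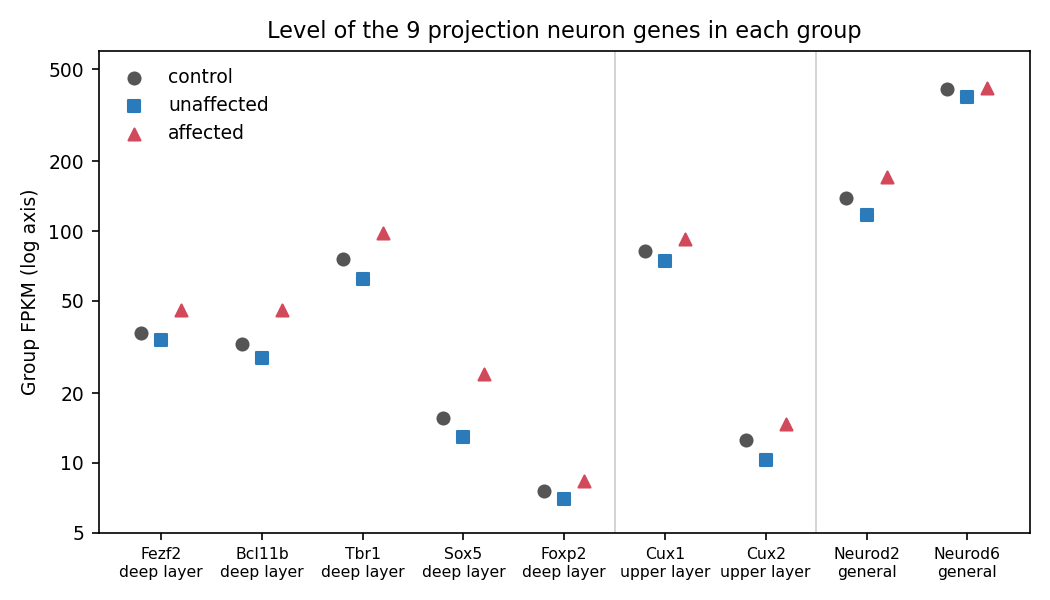
Group FPKM of each gene on a log axis, with 1 point per group for control (circle), unaffected (square) and affected (triangle) offspring; there are no error bars because the table holds 1 value per group. For each of the 9 genes the unaffected value is the lowest and the affected value the highest, from *Sox5* at 13.0 and 24.3 FPKM to *Neurod6* at 378 and 416 FPKM.

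*Sox5* encodes a SOX-family factor that controls the timed production and migration of corticofugal neurons. Its level was 15.6 FPKM in control, 13.0 in unaffected and 24.3 in affected fetuses. The affected value was 1.56-fold the control value and 1.87-fold the unaffected value, log2 ratios of 0.64 and 0.91, the largest among the 9 genes in both comparisons. Only 2.93% of expressed loci had a higher log2 ratio of affected to control, and 2.38% a higher ratio of affected to unaffected. The locus lies at chr6:143828425-144434487 (mm10) and spans 2 other annotated genes, including the antisense *Sox5os1*. The library kit does not keep strand, so reads of a gene and its antisense partner cannot be separated.

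*Bcl11b*, also called Ctip2, encodes a zinc-finger factor needed for the outgrowth of corticospinal axons and is expressed in striatal neurons as well. Levels were 32.7 FPKM in control, 28.2 in unaffected and 45.5 in affected fetuses. The affected level was thus 1.39-fold the control level and 1.61-fold the unaffected level, with log2 ratios of 0.47 and 0.69. Its locus is chr12:107910397-108004188, with no other annotated gene inside it.

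*Tbr1* encodes a T-box factor of layer VI corticothalamic neurons and of the early-born neurons of the preplate. It had the highest level of these 5 deep-layer genes, with 75.7 FPKM in control, 62.1 in unaffected and 98.3 in affected fetuses. Affected offspring had 1.30-fold the control level (log2 0.38) and 1.58-fold the unaffected level (log2 0.66). Its ratio of unaffected to control, a log2 of -0.29, was the lowest of the 9 genes, and 8.48% of expressed loci had a lower one. The gene lies at chr2:61804235-61814117.

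*Fezf2* encodes the zinc-finger factor that specifies subcerebral projection neurons of layer V. The level was 36.3 FPKM in control, 34.0 in unaffected and 45.7 in affected fetuses. The ratio of affected to control was 1.26, just past the threshold, and the ratio of affected to unaffected was 1.34. Its unaffected level was the closest to control among the 9 genes, with a log2 ratio of -0.09. The gene lies at chr14:12338995-12346040.

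*Foxp2* encodes a forkhead factor of layer VI neurons, best known for its part in vocal learning and speech, and is also expressed in the striatum and thalamus. It was the lowest of the 9 genes, with 7.58 FPKM in control, 7.01 in unaffected and 8.38 in affected fetuses. The affected level was 1.11-fold control and 1.20-fold unaffected, and *Foxp2* was the only deep-layer gene of the 9 that did not pass the threshold in these comparisons. Its locus at chr6:14901349-15442589 contains an annotated miRNA gene.

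The relation among the deep-layer genes also differed between groups. *Bcl11b*, which acts downstream of *Fezf2*, stood at 0.903 of the *Fezf2* level in control, 0.830 in unaffected and 0.994 in affected fetuses. *Sox5* stood at 0.429, 0.381 and 0.531 of the *Fezf2* level in the same order. *Tbr1*, known to restrain *Fezf2* in layer VI, was 2.09, 1.83 and 2.15 times as abundant per length as *Fezf2*. These 3 ratios to *Fezf2* were lowest in unaffected and highest in affected offspring, but others were lowest in affected offspring, such as *Tbr1* over *Bcl11b* at 2.31 in control and 2.16 in affected offspring. *Foxp2* likewise differed less from control (1.11-fold) than *Fezf2* did (1.26-fold). With the length medians described further on subtracted, *Bcl11b* (log2 0.25) and *Tbr1* (0.34) stood below *Fezf2* (0.39) between affected and control, so the direction of their ratios turned.

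*Cux1* and *Cux2* encode related homeodomain factors of layers II to IV that shape dendrites and synapses of upper-layer neurons. *Cux1* was at 81.9 FPKM in control, 74.6 in unaffected and 92.7 in affected fetuses, so that the affected level was 1.13-fold control and 1.24-fold unaffected. *Cux2* was at 12.5, 10.3 and 14.8 FPKM, and its affected level was 1.18-fold control and 1.43-fold unaffected. Neither upper-layer gene passed the threshold between affected and control, and *Cux2* alone passed it between affected and unaffected. *Cux1* exceeded *Cux2* by 6.55 times in control, 7.21 times in unaffected and 6.27 times in affected fetuses. *Cux1* lies at chr5:136248086-136567436 and *Cux2* at chr5:121857486-122050270, and 4 and 2 other annotated genes overlap them, antisense genes among them in both cases.

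*Neurod2* and *Neurod6* encode basic helix-loop-helix factors that newly made excitatory cortical neurons switch on as they leave the cell cycle. *Neurod2* was at 139 FPKM in control, 118 in unaffected and 171 in affected fetuses, 1.23-fold control and 1.45-fold unaffected. *Neurod6*, with the highest level of the 9 genes, was at 409, 378 and 416 FPKM, and its affected level was 1.02-fold control, with a log2 ratio of 0.14 to unaffected. Its log2 ratio of affected to control, 0.03, lay near the middle of the table, with 49.3% of expressed loci above it. The excess of *Neurod6* over *Neurod2* was 2.95 times in control, 3.21 times in unaffected and 2.43 times in affected fetuses. *Neurod6* likewise stood at 5.40, 6.09 and 4.23 times the level of *Tbr1*. *Neurod2* lies at chr11:98324825-98329645 and *Neurod6* at chr6:55677819-55681263, with no other annotated gene inside either.

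Levels in controls ran in the order *Neurod6*, *Neurod2*, *Cux1*, *Tbr1*, *Fezf2*, *Bcl11b*, *Sox5*, *Cux2* and *Foxp2*, and the unaffected group had the same order. In the affected group *Tbr1* stood above *Cux1* (98.3 and 92.7 FPKM), and *Fezf2* and *Bcl11b* were nearly level at 45.7 and 45.5 FPKM. Whether neighbours in this order differ beyond the spread between animals could not be assessed. *Neurod6* alone made up 50.5% of the summed FPKM of the 9 genes in control, 52.1% in unaffected and 45.4% in affected fetuses. *Tbr1* made up 9.35%, 8.56% and 10.7%, and *Sox5* 1.92%, 1.79% and 2.65%. The share of *Cux1* was close to 10% throughout, at 10.1%, 10.3% and 10.1%.

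**Figure D2:**
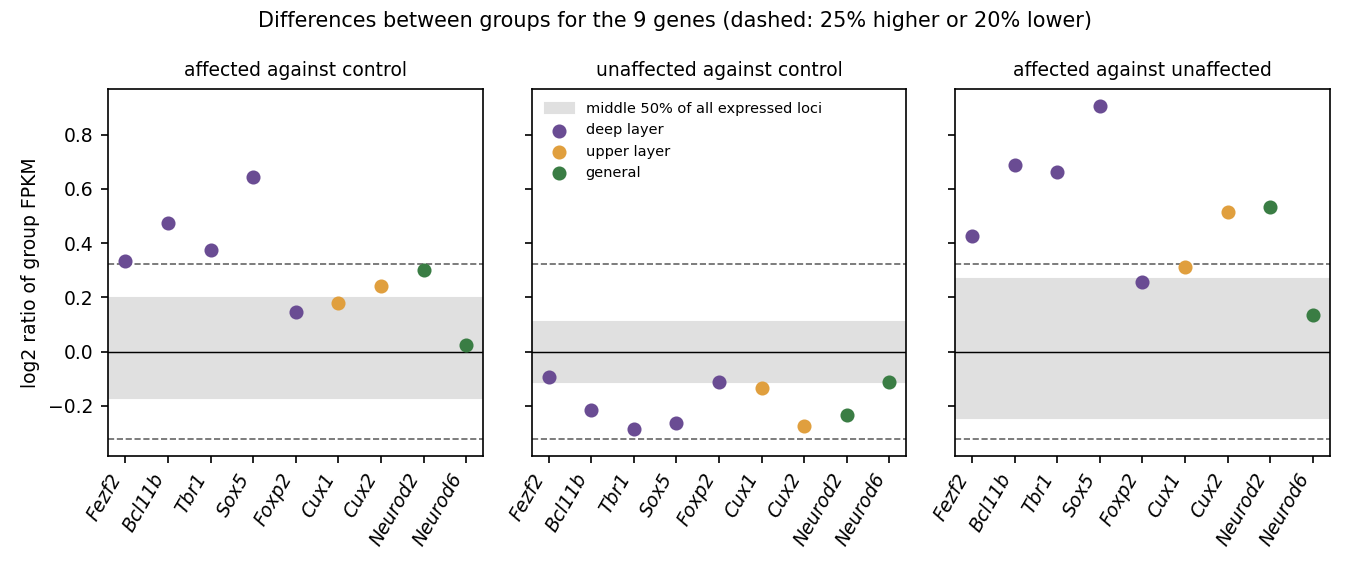
Log2 ratio of group FPKM for each gene in the 3 comparisons, coloured by layer; the grey band is the middle 50% of all 15455 expressed loci and dashed lines mark the threshold. The 4 points above the dashed line between affected and control are *Sox5*, *Bcl11b*, *Tbr1* and *Fezf2*, and all 9 points lie below 0 between unaffected and control without reaching the lower dashed line.

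Upper-layer genes were compared with deep-layer genes as the mean log2 FPKM of *Cux1* and *Cux2* minus that of the 5 deep-layer genes. The geometric mean of the upper-layer pair was 32.02 FPKM in control, 27.8 in unaffected and 37.0 in affected fetuses. For the deep-layer genes it was 25.4, 22.2 and 33.4 FPKM. The upper minus deep difference in mean log2 FPKM was thus 0.33 in control and 0.32 in unaffected offspring, but 0.15 in affected offspring. It was 0.18 lower in affected than in control (-0.18) and 0.17 lower than in unaffected offspring (-0.17), with almost no difference between unaffected and control (-0.01). Relative to loci of like transcript length, described below, the first 2 values were -0.30 and -0.39. The value against unaffected rested in part on single genes, at -0.073 without *Cux1*, -0.28 without *Cux2* and -0.095 without *Sox5*. The balance was not stable for longer lists. Over the means of all 20 deep-layer and 16 upper-layer genes listed, the difference in upper minus deep was 0.04 between affected and control and 0.14 between affected and unaffected, so the direction turned. The list medians of the log2 ratio to control kept the direction (0.23 for upper and 0.29 for deep genes), and those to unaffected turned (0.49 and 0.41).

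The differences moved with transcript length across the whole table. Among loci whose longest annotated transcript was shorter than 1000 nt, the median log2 ratio of affected to control was -0.31, and among those of at least 6000 nt it was 0.21. Between affected and unaffected these medians were -0.46 and 0.34. In the longest class, 26.2% of loci were higher past the threshold in affected than in control, and 51.8% were so in affected than in unaffected. *Bcl11b* (8111 nt), *Sox5* (7243 nt), *Foxp2* (6760 nt), *Cux1* (12862 nt) and *Cux2* (8784 nt) belong to this class. *Tbr1* (3977 nt), *Neurod2* (3142 nt), *Fezf2* (2429 nt) and *Neurod6* (2150 nt) are shorter. The part of transcript length in the differences of the 9 genes was not tested beyond the following values.

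Each gene was set beside the running median of 501 expressed loci of like length. Between affected and control, *Sox5* lay 0.42 above that median on the log2 scale, *Fezf2* 0.39, *Tbr1* 0.34, *Neurod2* 0.31, *Bcl11b* 0.25 and *Neurod6* 0.12. *Cux2* lay at its length median (0.01 above), and *Foxp2* and *Cux1* lay below theirs, at -0.05 and -0.08. Counted this way, 3 of the 9 genes (*Sox5*, *Fezf2* and *Tbr1*) were past the threshold between affected and control, against 4.20% of the 12482 expressed loci with a known length. Between affected and unaffected, *Tbr1* lay 0.62 above its length median, *Sox5* 0.57, *Neurod2* 0.56, *Fezf2* 0.54 and *Bcl11b* 0.34. These 5 were past the threshold, against 9.61% of loci, and *Cux2* no longer was (0.15 above). With the length median subtracted, the mean over the deep-layer genes was 0.27 between affected and control, and that of the upper-layer pair was -0.03. In the plot against transcript length, *Foxp2* and *Cux1* lie below the curve in both panels and the other genes above it.

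**Figure D3:**
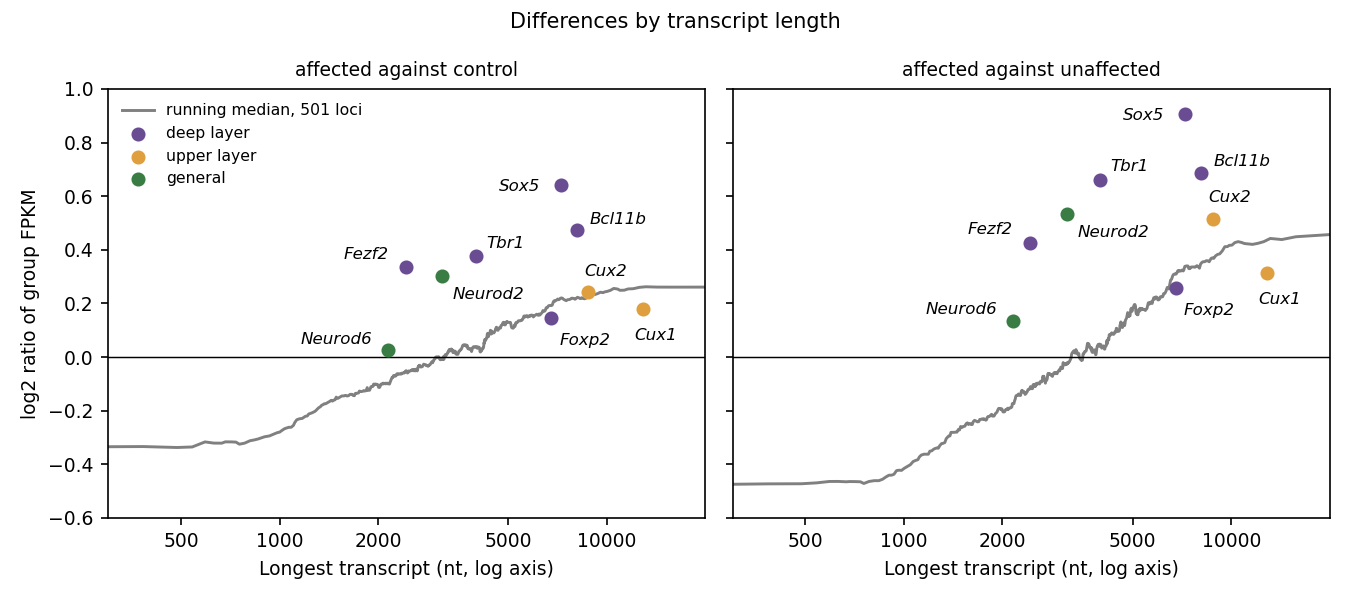
Log2 ratio of group FPKM against the longest annotated transcript (nt, log axis) for the 9 genes, coloured by layer, with the running median of 501 expressed loci ordered by length in grey. *Sox5*, *Bcl11b*, *Tbr1*, *Fezf2* and *Neurod2* lie above the curve in both panels, while *Foxp2* and *Cux1* lie below it.

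Sequencing depth per library is unknown from these values, but low loci can show steps of whole fragments. Below 0.3 FPKM, the 9 commonest ratios of affected to control ran from 0.616 to 0.885, though only 202 of 3413 low loci had them. If read as steps of whole fragments, they put the affected depth at 1.13 to 1.62 times the control depth. Against the unaffected group the ratios ran from 0.705 to 0.966, or 1.04 to 1.42 times the depth, and for unaffected against control from 0.458 to 0.962, or 1.04 to 2.18 times, so the reading is wide. Its part in the differences of the 9 genes was not tested. The 9 genes lie far above this range, the lowest being *Foxp2*, and 47.8% of expressed loci had a mean FPKM below that of *Foxp2*. FPKM over the whole table summed to 1683942, 2124820 and 1716613 in the control, unaffected and affected groups, and unnamed loci held 63.1% to 69.3% of it.

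Other genes of the same neurons were described through lists written from general knowledge. Of 20 deep-layer genes, which include the 5 above, 10 were higher and 3 lower past the threshold in affected than in control offspring, beside 12.6% and 11.5% of all expressed loci, with a median log2 ratio of 0.29 beside 0.02. Those higher included *Nfia* (log2 0.49) and *Nfib* (0.36), factors for late neuronal and glial differentiation, *Otx1* (0.41), a homeodomain factor of layer V, *Zfpm2* (0.39), a cofactor of corticothalamic identity, *Tshz3* (0.38) and *Tle4* (0.36), a corepressor of layer VI neurons. The 3 lower genes were *S100a10* (-0.62), a layer V marker, *Pcp4* (-0.38), a calmodulin regulator of deep-layer neurons, and *Crym* (-0.35), a thyroid hormone-binding protein of corticospinal neurons. *S100a10* and *Pcp4* have transcripts of 685 and 641 nt, and lay 0.30 and 0.06 below their length medians (-0.30 and -0.06). *Crym*, with 2681 nt, lay at -0.318 relative to its length median, just short of the threshold. Between affected and unaffected, 12 of the 20 were higher and 2 lower past the threshold, beside 20.7% and 18.5% of all loci, with a median of 0.41. *Tshz3* was at 8.96 FPKM in control, 6.91 in unaffected and 11.7 in affected fetuses, a log2 ratio of 0.75 between affected and unaffected. Between unaffected and control, 0 were higher and 2 lower, beside 5.53% and 6.99%, with a median of -0.20. With length medians subtracted, the list medians were 0.10, 0.29 and -0.15 in the same order. Only 3 of the 20, *Fezf2*, *Tbr1* and *Sox5*, were then higher past the threshold against control, beside 4.20% of loci with a known length. Between affected and unaffected 9 were higher, beside 9.61%. In the lower direction, 1 of the 20 was then past the threshold against control and 0 against unaffected. The share of all loci lower in this way was not counted.

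Of 16 upper-layer genes, 5 were higher and 1 lower past the threshold in affected than in control offspring, beside 12.6% and 11.5% of all expressed loci, with a median log2 ratio of 0.23. *Plxnd1* and *Plxna4*, plexin receptors for axon guidance, were higher by 0.58 and 0.37 on the log2 scale, *Cdh13*, a cadherin, by 0.39 and *Lhx2*, a LIM-homeodomain factor of cortical progenitors and upper layers, by 0.33. *Ptn*, a secreted growth factor also made by glia, was lower (-0.47), and stayed past the threshold relative to its length median (-0.42). Between affected and unaffected, 13 were higher and 1 lower, beside 20.7% and 18.5% of all loci and 51.8% higher among loci of at least 6000 nt. The list median was 0.49, and *Plxnd1* (0.89) and *Plxna4* (0.82) were among the highest. Between unaffected and control, 0 were higher and 5 lower, beside 5.53% and 6.99%, with a median of -0.28. *Plxnd1* was at 11.3 FPKM in control, 9.13 in unaffected and 17.0 in affected fetuses. Length medians subtracted, the list medians were 0.04 between affected and control, 0.23 between affected and unaffected and -0.19 between unaffected and control. Past the threshold in the higher direction were then 2 of 16 against control, beside 4.20%, and 7 of 16 against unaffected, beside 9.61%.

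In the general list of 12 excitatory neuron genes, 0 passed the threshold between affected and control, beside 12.6% of all loci higher and 11.5% lower, and the median log2 ratio was 0.12. Against unaffected, 5 were higher and 0 lower in affected offspring, beside 20.7% and 18.5% (median 0.30), and between unaffected and control 1 was lower, beside 6.99% (median -0.12). With length medians subtracted, these list medians were 0.13, 0.34 and -0.17, and the first 2 then stood above those of the deep-layer and upper-layer lists. *Nrp1*, a semaphorin receptor, was at 30.3, 23.9 and 36.9 FPKM in control, unaffected and affected offspring, and *Camk4*, a calcium-dependent kinase, at 3.32, 2.72 and 3.59 FPKM. The homeodomain gene *Emx1*, given above, was nearly level over the groups.

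The axon guidance list held 12 guidance and adhesion genes of projection neurons. In affected offspring 8 were higher than control past the threshold and 0 lower (median 0.38), beside 12.6% and 11.5% of all loci and 26.2% higher among loci of at least 6000 nt. Against unaffected, 11 were higher and 0 lower (median 0.55), beside 20.7% and 18.5% of all loci and 51.8% higher among the long ones. *Plxna2* (log2 0.51 against control), *Nfasc* (0.47), *Cntn2* (0.45), *Epha4* (0.41) and *L1cam* (0.40) were the furthest from control. *Cntn2*, an adhesion molecule of early axons, was at 54.4 FPKM in control, 42.4 in unaffected and 74.2 in affected fetuses. Between unaffected and control 3 were lower, beside 6.99%, with a median of -0.20. These are long genes, and their medians over the length medians were 0.20 between affected and control and 0.25 between affected and unaffected. With length medians subtracted, 0 of the 12 were past the threshold against control, beside 4.20% of loci higher, and 4 were higher against unaffected, beside 9.61%.

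Genes of subplate and Cajal-Retzius neurons, the earliest-born neurons of the cortex, were mixed. Of 12 listed, 10 were expressed and the other 2 (*Cplx3* and *Lhx1*) were under 1 FPKM. Of the 10, 4 were higher and 1 lower past the threshold in affected than in control offspring, beside 12.6% and 11.5% of all loci. *Trp73* (log2 0.62), *Reln* (0.49) and *Lhx5* (0.41), which mark Cajal-Retzius cells, and *Nr4a2* (0.36), a nuclear receptor of subplate neurons, were higher. *Calb2*, a calcium-binding protein also made by interneurons, was lower (-0.51). Against unaffected offspring 4 were higher and 1 lower, beside 20.7% and 18.5%, led by *Nr4a2* at 10.7 and 18.3 FPKM in the 2 groups. With length medians subtracted, 4 were higher and 1 lower past the threshold against control, beside 4.20% of loci higher. *Reln* (0.24) was then no longer among the higher genes, and another gene was. Against unaffected, 5 were then higher, beside 9.61% of loci, and 0 lower.

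**Figure D4:**
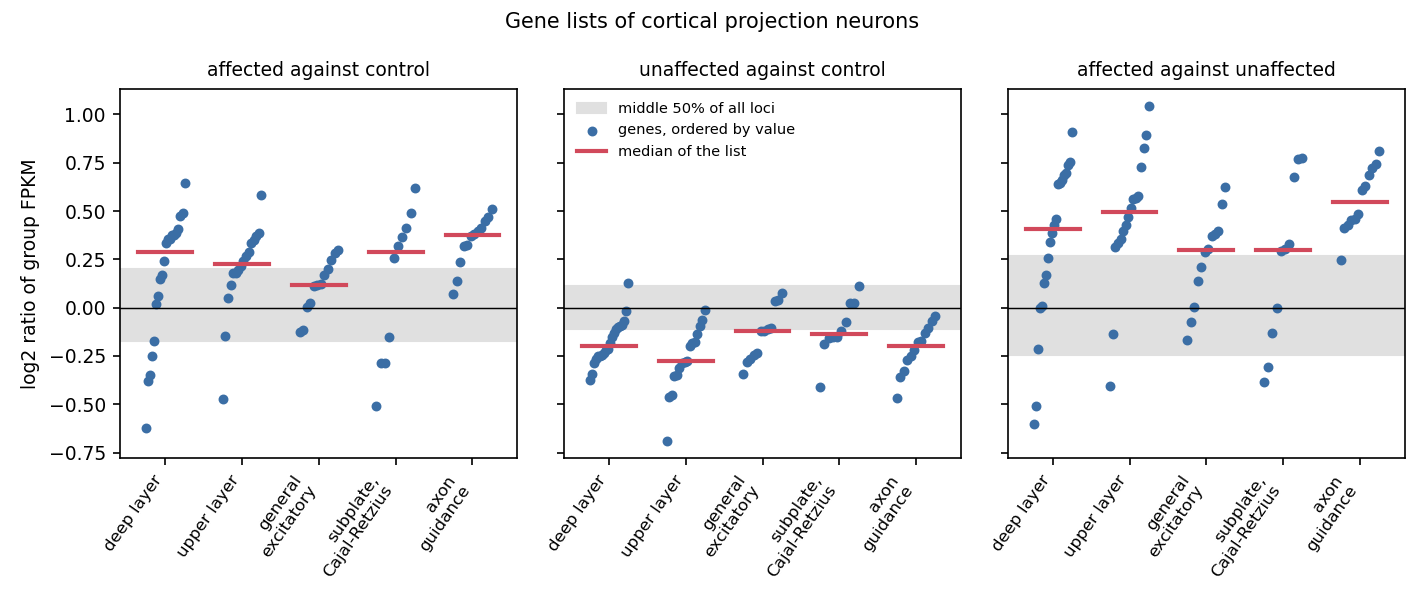
Log2 ratio of group FPKM for each expressed gene of the 5 projection neuron lists, 1 point per gene in order of value, with the list median in red and the middle 50% of all expressed loci in grey. List medians between affected and control run from 0.12 (general excitatory) to 0.38 (axon guidance), and those between unaffected and control are all below 0.

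Markers of other cells were also read in the 3 groups. All 10 general neuron markers were expressed and summed to 4031, 4003 and 3798 FPKM in control, unaffected and affected offspring, with a median log2 ratio of 0.01 between affected and control. Against unaffected, 4 were higher and 1 lower past the threshold in affected offspring, beside 20.7% and 18.5% of all loci (median 0.04). All 8 markers of intermediate progenitors, which give rise to projection neurons, were expressed and summed to 195, 209 and 232 FPKM, and 3 were higher past the threshold in affected than in control offspring, where 12.6% of all loci were higher and 11.5% lower. All 11 radial glia markers were expressed, with 4 higher and 3 lower, and their sum of 2510, 2671 and 1908 FPKM was mostly *Fabp7* (880 nt). With length medians subtracted, 3 of these 11 were higher, beside 4.20% of loci, and 2 lower, with a list median of 0.28. Of 12 interneuron markers 11 were found and expressed, summing to 758, 851 and 757 FPKM, and 1 was higher between affected and control. Of 11 striatal markers 10 were found and expressed, summing to 209, 206 and 233 FPKM, with 2 higher. This list bears on *Bcl11b* and *Foxp2*, which striatal neurons share. The 8 thalamus markers, of which 6 were expressed, summed to 42.8, 50.4 and 36.9 FPKM, led by *Zic1*, and 2 were higher and 2 lower between affected and control. No marker of these 6 lists was at 0 in a group. The part of these cell types in the differences of the 9 genes was not tested.

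The genes with the pattern most like a member were sought among 6569 named loci of at least 10 FPKM, by the Euclidean distance between the log2 ratios of unaffected and of affected to control, that is over 3 group values. For *Sox5* the nearest were *Polr2a* (distance 0.033), *Col4a2* (0.066) and *Plxnd1* (0.076), and 6 loci lay within 0.1. For *Bcl11b* they were *Zfp609* (0.025), *Kif21b* (0.026) and *Rnf165* (0.029), and 103 loci lay within 0.1. *Tbr1* was nearest to *Sox11* (0.013), *Mll5* (0.014) and *C530008M17Rik* (0.016), with 151 loci within 0.1. *Sox5* thus had the fewest loci within 0.1 of these 3. It also had the largest ratios of the affected group to the others, where fewer loci lie, so this count is not separate from its ratios.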

How the data were processed

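Libraries from RNA of 9 fetuses were made with the TruSeq kit and sequenced as paired reads. The methods name STAR as well as Bowtie with TopHat for alignment to mm10, and the submitters' processing notes list Bowtie2 2.2.4.0, Cufflinks and Cuffdiff. The deposited unit is FPKM, for which the authors' software took 1 value per group and locus over the animals of the group. Columns of single animals numbered 0. The authors' own comparisons in the table (fold changes, p-values and q-values) were not used.

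Log2 ratios were computed from the group FPKM with no pseudocount, for loci with a mean of at least 1 FPKM and no 0, in Python 3.11.15 with pandas 2.3.3 and numpy 2.4.6. The calculation was tested on simulated data. Transcript lengths came from GENCODE M21, matched by symbol for 80.8% of expressed loci, and promoters from RefSeq, found for 8 of the 9 genes. Authors' locus starts count from 0 and were converted to count from 1. With 1 value per group, precision could not be estimated. The members, lists and tests were chosen with earlier results of these data known. All 9 genes are named in each comparison. From each list, up to 3 genes with the largest difference each way and those past the threshold against both other groups could be named, and a gene of the lists is not reported here. Alternatives covered the fold, scaling, pseudocount, filter, transcript length and gene choice.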

Additional observations from a re-analysis of the deposited data

How the results depend on the processing

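No paired analysis was possible because the table holds group values only, and for the same reason leaving out single animals was not run. Of the 9 genes, 8 were at least 1.1-fold higher in affected than in control, beside 33.5% of expressed loci. At 1.5-fold there was 1 (*Sox5*), beside 3.47%. In unaffected offspring 5 were at least 1.1-fold lower than in control, beside 21% of loci. Between affected and unaffected, 3 were at least 1.5-fold higher in affected offspring, beside 7.19%. Rescaling FPKM to an equal sum per group shifted the log2 ratios of all loci by -0.34 between unaffected and control, so that 9 genes were lower past the threshold, as were 51.6% of expressed loci. Rescaling over named loci, added after seeing the data, shifted the ratio of affected to control by 0.17, and 7 genes were then higher, beside 32.1% of loci, while 3 were lower between unaffected and control, beside 10.4% of loci. Both rescalings gave 9 genes between affected and unaffected. The other settings left these counts within 1.5 times.

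The upper minus deep difference turned direction over all genes of both lists, to 0.043 between affected and control and 0.14 between affected and unaffected. With length medians subtracted it was -0.30 between affected and control and -0.39 between affected and unaffected. Between affected and unaffected it was -0.073 without *Cux1* and -0.28 without *Cux2*, and it was -0.095 without *Sox5*, which also took the value against control to -0.12. Between unaffected and control, where it was near 0, it turned to 0.059 without *Cux2*, 0.015 without *Fezf2*, 0.0097 without *Foxp2*, 0.0098 without *Foxp2* and *Bcl11b*, and 0.091 with length medians subtracted.

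For single genes, 53 of 162 alternative log2 ratios moved by at least 0.1, and the sign changed in 6, none of them of a ratio past the threshold. With length medians subtracted, *Foxp2* turned to -0.05 in both comparisons of the affected group, and *Cux1* to -0.08 and -0.12 there and to 0.05 between unaffected and control. Rescaled to an equal sum, *Neurod6* turned to -0.0027 between affected and control.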

Other observations

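Markers of other cell types gave values outside the comparisons above. The 4 expressed blood markers were each higher past the threshold in unaffected than in control offspring and lower past it in affected than in unaffected offspring, beside 5.53% and 18.5% of all loci. With length medians subtracted, 2 of the 4 were still higher and 1 of the 4 lower past the threshold in these comparisons, and the blood list summed to 457, 596 and 371 FPKM in control, unaffected and affected offspring. Choroid plexus markers, 5 of 6 expressed, summed to 991, 1316 and 1104 FPKM, mostly *Ttr*. In affected offspring 1 of the 5, *Clic6* (log2 0.89), was higher past the threshold than control, beside 12.6% of all loci. In unaffected offspring only *Ttr* (0.41) was, beside 5.53%. With length medians subtracted, 2 of the 5 were higher past the threshold in affected offspring, beside 4.20% of loci, and 0 in unaffected offspring. Microglia markers summed to 48.7, 49.99 and 38.9 FPKM, and 3 of 6 (*Aif1*, *C1qa* and *Tyrobp*) were lower past the threshold in affected than in control offspring, beside 11.5% of all loci. These have short transcripts of 875, 1040 and 597 nt, and with length medians subtracted their log2 ratios were -0.30, -0.16 and -0.22, none past the threshold, while 48.7% of loci under 1000 nt were lower past it. Endothelial markers summed to 68.0, 68.6 and 71.3 FPKM, mostly *Cldn5*, and 2 of 6 were higher past the threshold in affected than in control offspring, *Kdr* (log2 0.50) and *Cdh5* (0.42), beside 12.6% of all loci. Against unaffected 3 of 6 were higher, beside 20.7%, and with length medians subtracted 2 of 6 were higher past the threshold in each comparison, beside 4.20% and 9.61% of loci. Meningeal markers summed to 72.9, 67.1 and 65.0 FPKM and oligodendrocyte precursor markers to 36.3, 34.2 and 37.1 FPKM. These differences were not tested.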
